A study of Mus musculus with 4 samples.

Results

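This comparison set the kidney cell library taken 4 h after a single injection of FGF23 directly against the library taken 1 h after it, gene by gene, and asked which changes present at 1 h had decayed, which persisted, which went further and which appeared between the time points. It used 2 of the 4 libraries of the series, with the 0 h library as the base for what counts as a 1 h change. Barcodes with 300 or more genes and at most 50% mitochondrial UMIs (unique molecular identifiers, 1 per captured RNA molecule) were kept: 9477 barcodes at 1 h and 11120 at 4 h, beside 10123 at 0 h. All UMIs of the kept barcodes were summed per gene and library and scaled to CPM, that is to the same total in every library.

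The mice were C57BL/6J males and females aged 10 weeks. The treated mice received 10 µg of recombinant human FGF23 per mouse by intraperitoneal injection and were killed 1 or 4 h later, and the control library is labelled 0 h with a dose of 0 µg. The name of the control's deposited matrix describes saline at 1 h instead, so whether the control mice were injected is uncertain. Kidneys of a male and a female were digested together, red cells were lysed and dying cells were removed with annexin V before 10x Genomics 3' (v3) capture. Each time point is 1 library of pooled animals, so no difference below has a replicate check. Every interval covers counting error only, and differences between the mice, the dissections or the times of day at which kidneys were taken cannot be told apart from time after FGF23.

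FGF23 is a hormone made by bone that lowers blood phosphate and active vitamin D. In the kidney it binds FGF receptors together with the co-receptor Klotho (gene Kl), and the bound receptor signals through the ERK kinase cascade. ERK activity first induces short-lived transcripts of transcription factors, the immediate early genes, and then feedback inhibitors of the cascade such as the dual-specificity phosphatases and the Sprouty proteins. Klotho is most abundant in the distal convoluted and connecting tubule (DCT and CNT), while phosphate reabsorption and vitamin D activation take place in the proximal tubule (PT).

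The kept barcodes held 124001116 UMIs at 1 h and 142112983 at 4 h, with medians of 11666 and 10992.5 UMIs per barcode. The median mitochondrial share was 20.8% at 0 and 1 h and 15.9% at 4 h, and its part in the gene differences was not tested beyond a repeat with a limit of 25%. The 1 h and 4 h libraries shared 26 kept barcode sequences. Among the cells whose sex could be called from sex-linked transcripts, 39.5% were female at 1 h and 43.6% at 4 h. Cells were clustered jointly without the response genes, and 36 of 55 clusters were given the name of a cell type, written below as PT-like and so on. In each of the 10 named main classes every marker of its list was higher in the class than outside it. The clusters were named from these same markers, so this is no independent check of the names.

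Of 14111 genes with 100 or more UMIs over both libraries, 231 (1.64%) were at least 2-fold higher at 4 h and 362 (2.57%) at least 2-fold lower. The median log2 ratio over all of them was 0.05. Against 0 h, 238 of 14685 genes (1.62%) differed at least 2-fold at 1 h and 860 (5.86%) at 4 h, so the number of genes displaced from the control grew between the time points.

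Among the largest rises that were at least 2-fold in both sexes were genes of several cell types. Cry1 (ENSMUSG00000020038, chr10:85131700-85185064 on mm10), a repressor of the circadian clock, had 231 UMIs at 0 h, 300 at 1 h and 1388 at 4 h, which is 1.91, 2.42 and 9.77 CPM, and the log2 ratio of 4 h to 1 h was 2.01 (95% counting interval 1.83 to 2.20). Cbr3, a carbonyl reductase, had 257, 260 and 1171 UMIs (log2 ratio 1.97). Both genes were less than 2-fold from the control at 1 h (log2 ratios of 0.34 for Cry1, 0.09 to 0.59, and -0.02 for Cbr3) and more than 2-fold above it at 4 h.

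Gper1, a membrane receptor for oestrogen, had 106, 100 and 538 UMIs (log2 ratio 2.23), and Etv4, an ETS transcription factor downstream of ERK, had 24, 39 and 185 UMIs (log2 ratio 2.03). For both genes the DCT/CNT-like cells supplied the largest part of the CPM difference. The natriuretic peptide convertase Corin had 18, 12 and 309 UMIs (log2 ratio 4.43), and 294 of its 309 UMIs at 4 h came from 71 cells of 1 unnamed cluster, which held 45 cells at 1 h.

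Of the 12 largest falls that were at least 2-fold in both sexes, 4 were led by macrophage-like and 4 by neutrophil-like cells. The insulin gene Ins2, a pancreatic transcript, had 658 UMIs at 0 h, 570 at 1 h and 14 at 4 h (log2 ratio -5.49), and the summed level of 10 pancreas markers was 9.01, 7.78 and 0.148 CPM, with all 10 at least 2-fold lower and 5 at 0 at 4 h. Cxcl2, a neutrophil attractant, had 1841, 1907 and 260 UMIs, and Ptgs2, the inducible cyclooxygenase, had 543, 605 and 76. Neutrophil-like cells led both of these falls. The orphan nuclear receptors Nr4a1 (967, 1696 and 249 UMIs, log2 ratio -2.96) and Nr4a3 (84, 210 and 21 UMIs, log2 ratio -3.49) had falls led by DCT/CNT-like cells, and the class that led the falls of Ins1 and Ins2, which kidney cells are not known to express, was PT-like.

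**Figure D1:**
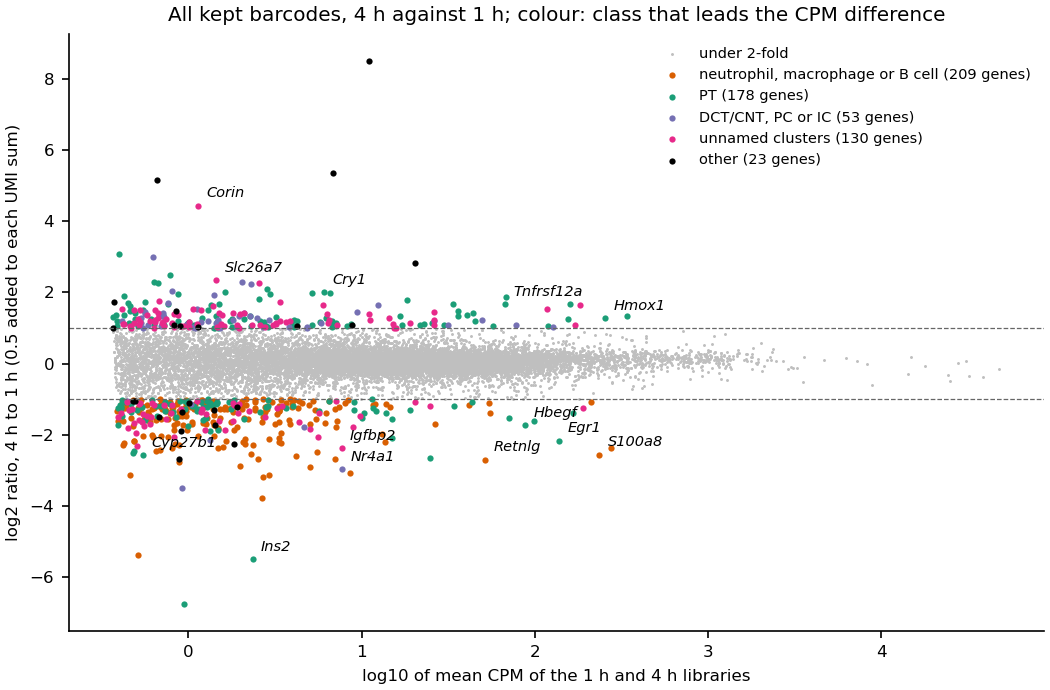
Each point is a gene with 100 or more UMIs over both libraries, by the log10 of its mean CPM (horizontal) and its log2 ratio of 4 h to 1 h (vertical), with dashed lines at 2-fold and colours for the class that leads the CPM difference. Most of the 362 lower genes are led by leukocyte-like classes, the PT-like class or unnamed clusters, and Egr1 and Hbegf fall while Tnfrsf12a and Hmox1 rise.

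The make-up of the libraries moved with these counts. Neutrophil-like cells were 330 of 8936 barcodes without a doublet call at 1 h (3.69%) and 80 of 10293 at 4 h (0.777%), macrophage-like cells fell from 55 to 25 and B cell-like cells from 182 to 94. The summed level of the 6 neutrophil markers was 1217, 1050 and 420 CPM at 0, 1 and 4 h, that of the 6 macrophage markers 76.3, 34.5 and 12.4 CPM, and that of the 7 T and NK cell markers 50.7, 49.7 and 50.5 CPM. In sums over all cells, fewer cells of a type and less RNA per cell cannot be told apart. Neutrophil-like cells had medians of 1730.5 UMIs per cell at 1 h and 1742 at 4 h. The medians were 8091 and 9703 in macrophage-like and 2330.5 and 2400 in B cell-like cells. PT-like cells kept their share of barcodes, with 71.2% at 1 h and 71.5% at 4 h. Their share of all summed UMIs went from 75.1% to 70.5%. Intercalated cell (IC)-like cells went from 109 to 230 and principal cell (PC)-like cells from 55 to 117.

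Neutrophil-like cells led the CPM difference of 144 of the 362 lower genes, PT-like cells of 83, unnamed clusters of 53, macrophage-like cells of 34 and B cell-like cells of 31. Of the 144 genes led by neutrophil-like cells, 138 could be measured within that class and 8 of these were at least 2-fold lower there, with a median log2 ratio of -0.14 within the class and -1.53 over all barcodes. Of the 231 higher genes PT-like cells led 95, unnamed clusters 77, DCT/CNT-like cells 21, PC-like cells 16 and IC-like cells 10. One unnamed cluster led 57 of those 77. Its leading genes were Aqp6, Fxyd4, Hsd11b2, Slc4a1 and Aqp2, genes of both collecting duct cell types, its median UMI count per cell was 2.91 times that of its library (median over the libraries), and it held 20 cells at 1 h and 72 at 4 h. Within it 13 of the 57 genes were at least 2-fold higher, with a median log2 ratio of 0.56 against 1.17 over all barcodes. With each class held at its 1 h share of UMIs, 126 of the 231 higher and 163 of the 362 lower genes were still at least 2-fold different. The unnamed clusters were held together as 1 class, so shifts between them, or between clusters of any other class, remained in these counts.

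**Figure D2:**
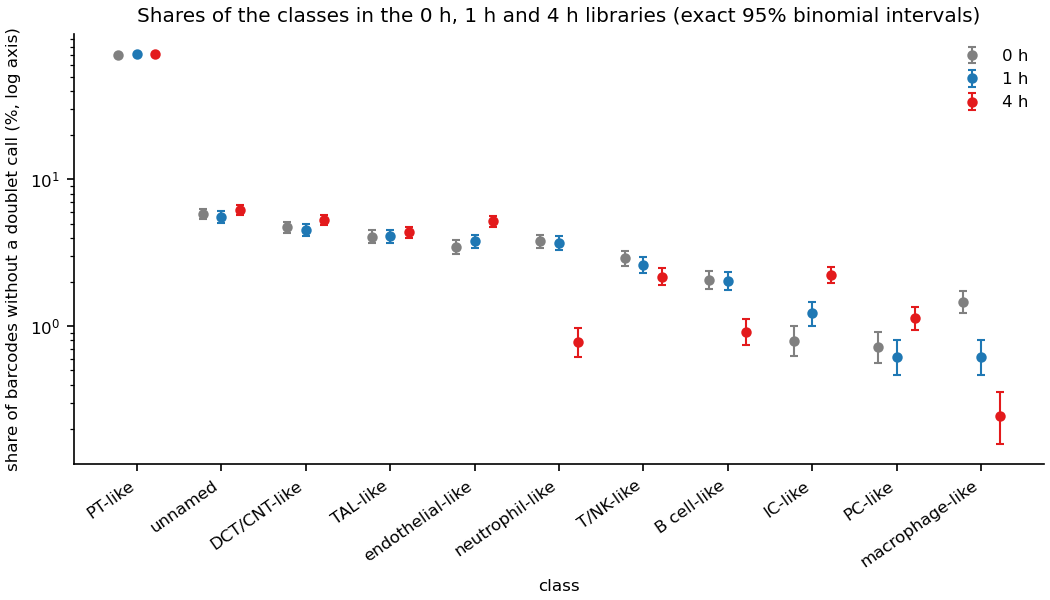
Share of barcodes without a doublet call (log axis, with exact 95% binomial intervals) in each class, at 0, 1 and 4 h. The neutrophil-like share is 3.69% at 1 h and 0.777% at 4 h, while the PT-like share stays near 71.5%.

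Over all barcodes, 238 genes were at least 2-fold from 0 h at 1 h, 150 higher and 88 lower. By 4 h, 57 of them had returned, meaning at least 2-fold back from their 1 h level and less than 2-fold from 0 h, and 15 had come back at least 2-fold but not fully. Another 69 were held, less than 2-fold from their 1 h level and still at least 2-fold from 0 h, 23 had gone at least 2-fold further, 7 lay at least 2-fold on the other side of 0 h, and 67 fell between these definitions. A further 454 genes were new, at least 2-fold from both 0 and 1 h at 4 h without a 1 h change. The 1 h library enters both ratios, so a gene picked for a high 1 h value tends to be lower at 4 h, and the counts describe these libraries without a test.

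The returned genes differed in the cells that led them. Of the 42 genes that had been higher at 1 h and returned, 36 were led by 1 unnamed cluster whose leading genes, Upk3a, Sprr1a, Krt19, Psca and Ly6d, are genes of the urothelium that lines the renal pelvis. It held 10 cells at 0 h, 46 at 1 h and 27 at 4 h. Within that cluster the median log2 ratio of the 36 genes was -0.24 and 2 of them were at least 2-fold lower, against -1.48 over all barcodes. The other 6 were Egr1, Egr2, Hbegf, Pde10a, Gzmb and Xlr3b. The 15 genes that had been lower at 1 h and returned included Cyp7b1, an oxysterol hydroxylase, with 3505, 1161 and 3381 UMIs, and Havcr1, the kidney injury molecule KIM-1, with 163, 26 and 149.

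Among held genes, Irs2, the insulin receptor substrate, had 39.3 CPM at 0 h, 9.85 at 1 h and 9.01 at 4 h, so the fall of 1 h was still present in full. Genes that went further included Tnfrsf12a (ENSMUSG00000023905, chr17:23675445-23677468), the receptor of the cytokine TWEAK, at 14.6, 32.1 and 102 CPM (log2 ratio 1.66, 1.61 to 1.71), and Hmox1 (ENSMUSG00000005413, chr8:75093621-75100589), heme oxygenase 1, at 56.1, 148 and 360 CPM (log2 ratio 1.28, 1.25 to 1.30). In the other direction, 9 of the 17 genes that fell further were led by macrophage-like cells, among them the complement gene C1qa with 2746, 1100 and 170 UMIs. Plk3, a stress-responsive kinase, crossed the control level, with 15.4, 42.8 and 6.76 CPM. New falls were led by neutrophil-like cells for 152 of 304 genes, and new rises by PT-like cells for 57 of 150.

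Because the make-up of the libraries weighs on sums over all barcodes, the same comparison was made within classes, on genes with 50 or more UMIs. In the 6366 PT-like cells at 1 h and 7357 at 4 h, 268 of 12514 genes (2.14%) were at least 2-fold higher at 4 h and 162 (1.29%) lower. Against 0 h, 201 of 12979 genes (1.55%) had changed at 1 h and 564 (4.35%) at 4 h. Of the 201, 58 had returned, 2 had partly returned, 56 were held, 12 had gone further, 5 lay on the other side of 0 h and 68 fell between. There were 275 new changes, 136 higher and 139 lower.

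Of the 58 returned genes 45 had been lower at 1 h, among them Cyp7b1 with 34.2, 10.3 and 26.7 CPM. Cyp7b1 is a marker of the S3 segment and the leading gene of 1 PT-like cluster, which held 235, 80 and 176 kept barcodes. S3-like cells were 27.5%, 23.0% and 21.5% of barcodes without a doublet call at 0, 1 and 4 h. The part of these shifts within the PT-like class in the course of Cyp7b1 was not tested. Of the sex-called S3-like cells 4.25%, 3.79% and 5.49% were female, against 50.6%, 49.3% and 52.0% of the other PT-like cells (S1/S2-like). A split of PT-like cells by sex is therefore in part also a split by segment, here and below. The other 13 returned genes had been higher at 1 h. Egr1 (ENSMUSG00000038418), a zinc finger transcription factor and immediate early gene on chromosome 18, was one of these 13 and had 1848 UMIs at 0 h, 19185 at 1 h and 1904 at 4 h, or 206 CPM at 1 h (log2 ratio -3.44, -3.51 to -3.37). Its 4 h level lay slightly below that of the control. Hbegf, a ligand of the EGF receptor, followed the same course with 2201, 12821 and 2486 UMIs (log2 ratio -2.47, -2.54 to -2.41).

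Other returned genes were Junb, an AP-1 subunit, at 28.2, 62.2 and 22.4 CPM, and Ier2, an immediate early gene, at 21.0, 71.5 and 27.9 CPM. The growth arrest gene Gadd45a had 19.5, 56.6 and 24.5 CPM. Id1, an inhibitor of helix-loop-helix factors, had 15.2, 86.4 and 29.9 CPM, and its ratio differed between the sexes, with log2 values of -3.46 (male-called) and -0.90 (female-called). All of these were highest at 1 h, and Id1 was the one whose 4 h level lay furthest above the control, at a log2 ratio of 0.98 to 0 h. Gadd45a and Id1 were chosen after their values were seen.

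Of the 56 changes held in PT-like cells 27 were rises and 29 falls. Hes1, a repressor best known as a Notch target, had 6.25, 56.7 and 33.4 CPM (log2 ratio -0.77). Dusp6 (ENSMUSG00000019960, chr10:99263231-99267489), the cytoplasmic ERK phosphatase, had 1937, 7712 and 6249 UMIs (log2 ratio -0.41), and Spry4, an inhibitor of receptor tyrosine kinase signalling, had 2.47, 7.66 and 7.73 CPM (log2 ratio 0.01). Their 4 h levels were at least 2-fold above the control in each case. Held falls included Irs2, at 42.2, 6.65 and 5.88 CPM, and Txnip, an inhibitor of thioredoxin and of glucose uptake, at 103, 35.2 and 21.5 CPM.

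Rises that went further included Tnfrsf12a at 13.2, 27.0 and 94.8 CPM (log2 ratio 1.81) and Hmox1 at 64.4, 178 and 445 CPM (log2 ratio 1.33). The metallothionein Mt1, a metal-binding protein, had 24.0, 66.6 and 289 CPM in PT-like cells, with log2 ratios of 2.86 among male-called and 1.25 among female-called cells. Mt1 is far more abundant in DCT/CNT-like cells (1105, 2043 and 3107 CPM), and the part of free RNA in its PT-like value was not tested. The DCT transporter Slc12a3 had 8.61, 7.67 and 8.61 CPM in PT-like cells.

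New at 4 h in PT-like cells were Cbr3 (0.987, 1.51 and 7.75 CPM) and Ccl28, a mucosal chemokine (4.70, 2.99 and 13.4 CPM). Plaur, the urokinase receptor, had 26, 22 and 129 UMIs there. New falls included Zfp36, which destabilises inflammatory mRNAs, at 49.1, 83.1 and 21.7 CPM, and Dusp1, a phosphatase of the stress kinases, at 173, 110 and 32.8 CPM. Noct, a clock-controlled nuclease chosen after its values were seen, had 11.0, 15.7 and 3.57 CPM. These 3 genes were lower at 4 h than in the control as well as lower than at 1 h.

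The list of 25 immediate early genes was lower at 4 h than at 1 h in most members. Of the 22 measured over all barcodes, 8 were at least 2-fold lower at 4 h than at 1 h, beside 2.57% of all genes, and none higher. The median log2 ratio of the 22 was -0.85 against 0.05 for all genes. In PT-like cells 11 of 20 were at least 2-fold lower, beside 1.29% of all genes, and 1, Ier5, at least 2-fold higher (median -1.09, all genes 0.04). In DCT/CNT-like cells 10 of 19 were at least 2-fold lower, beside 1.8% of all genes, and none higher (median -1.04, all genes -0.03). The medians were -0.39 in cells of the thick ascending limb (TAL-like), -0.22 in endothelial-like cells and -0.14 in both PC-like and IC-like cells. In PT-like cells Fos had 60.2, 82.3 and 28.4 CPM, whereas Myc had 5.39, 6.91 and 7.07 CPM, so not all members followed Egr1.

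Many immediate early genes are known to be driven by serum response factor through the CArG box. The box was sought, on both strands, in the 250 bases before each start in a RefSeq promoter table (build GRCm38.p6) as CC, 6 bases that are A or T, and GG. It was present in 482 of 32851 promoters (1.47%) and, of the 18 list genes in that table, in those of Egr2 and Zfp36. These are shown because both genes were at least 2-fold lower at 4 h than at 1 h over all barcodes, Egr2 with 20, 78 and 13 UMIs, under the minimum of 100 for the pair of libraries and so not among the 22, and Zfp36 with 74.0, 105 and 36.6 CPM. Egr2 is at chr10:67537316-67537565 on the plus strand and Zfp36 at chr7:28379229-28379478 on the minus strand, each read 5′ to 3′ in the direction of the gene with the box in capitals.
Egr2: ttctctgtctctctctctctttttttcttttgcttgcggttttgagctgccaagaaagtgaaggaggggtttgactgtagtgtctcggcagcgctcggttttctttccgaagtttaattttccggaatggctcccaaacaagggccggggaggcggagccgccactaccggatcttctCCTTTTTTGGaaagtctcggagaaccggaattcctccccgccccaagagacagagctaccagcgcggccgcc
Zfp36: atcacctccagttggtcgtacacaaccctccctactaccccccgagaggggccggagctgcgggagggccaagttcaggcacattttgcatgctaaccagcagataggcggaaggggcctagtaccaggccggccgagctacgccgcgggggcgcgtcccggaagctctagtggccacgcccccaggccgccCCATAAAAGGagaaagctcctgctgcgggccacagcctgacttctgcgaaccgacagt
A match of letters describes the sequence and does not show that the factor binds there.

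Inhibitors of the ERK cascade, by contrast, kept their 1 h levels in most members. Of the 13 measured over all barcodes, none was at least 2-fold lower at 4 h than at 1 h (2.57% of all genes). Of these 13, 1, Spred3, was at least 2-fold higher (1.64% of all genes). The median log2 ratio of the 13 was 0.06 to 1 h and 0.94 to 0 h. In PT-like cells no member of 12 passed 2-fold in either direction (median 0.03 to 1 h and 1.00 to 0 h). In DCT/CNT-like cells 3 of 11 were at least 2-fold higher, Spry1, Dusp4 and Spred3, beside 2.04% of all genes, and none was lower. The median in that class was 0.40 to 1 h and 1.31 to 0 h. In TAL-like cells all 9 measured members were lower at 4 h than at 1 h, by less than 2-fold each, with a median of -0.31.

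The median ratio of the delayed ERK targets was 0.81 over 7 members in DCT/CNT-like cells, 0.11 over 8 in PT-like cells and -0.11 over 6 in endothelial-like cells, and these differences were not tested. Etv4 had 15, 25 and 132 UMIs in DCT/CNT-like cells and 3, 1 and 2 in PT-like cells. Ccnd1, the cell cycle regulator cyclin D1, went the other way in PT-like cells with 47.5, 58.1 and 23.5 CPM.

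**Figure D3:**
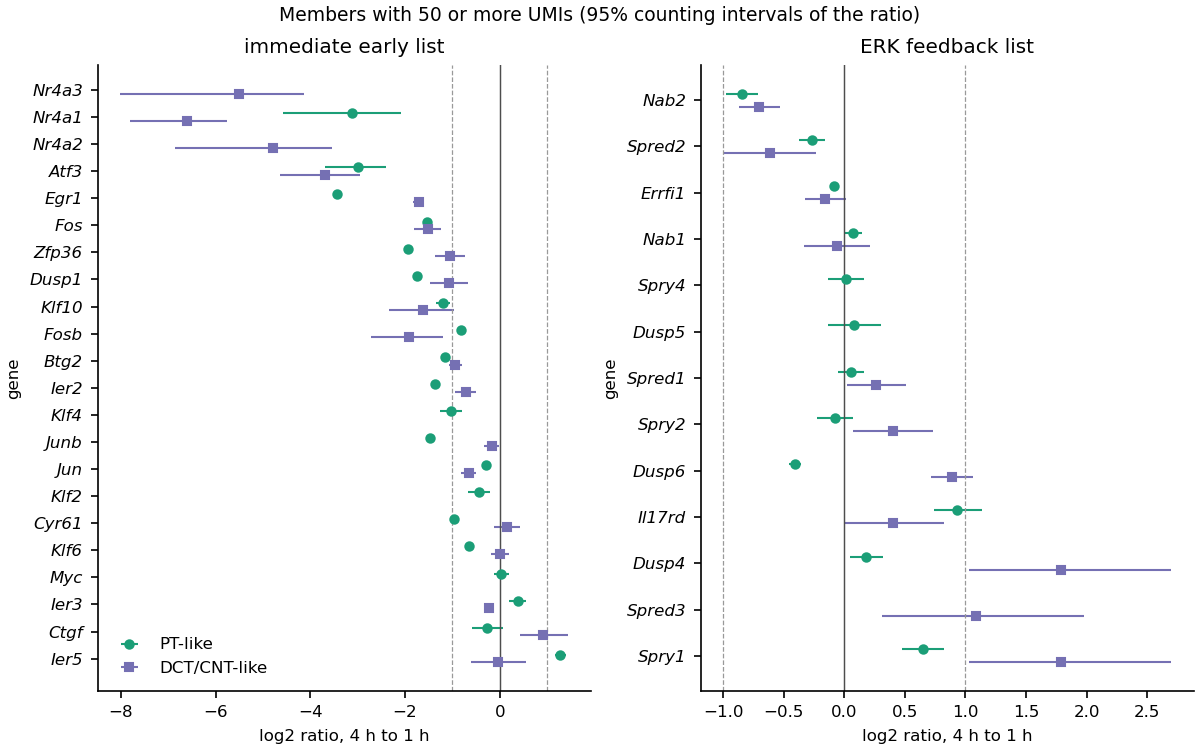
Log2 ratio of 4 h to 1 h (horizontal, with 95% counting intervals) for the members of the immediate early list (left) and the ERK feedback list (right) with 50 or more UMIs, in PT-like cells (circles) and DCT/CNT-like cells (squares), with dashed lines at 2-fold. Immediate early members lie mainly left of 0 in both classes, while the feedback members lie around 0 in PT-like cells and in part right of 0 in DCT/CNT-like cells.

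The vitamin D enzymes moved further apart between 1 and 4 h. Cyp24a1 (ENSMUSG00000038567, chr2:170482708-170497145), which inactivates vitamin D, had 4434 UMIs at 0 h, 21772 at 1 h and 42271 at 4 h in PT-like cells, which is 50.3, 234 and 422 CPM (log2 ratio 0.85, 0.83 to 0.88). It remained within 2-fold of 1 h and so counts as held, with ratios of 1.18 among male-called and 0.27 among female-called cells. Cyp27b1 (ENSMUSG00000006724, chr10:127048250-127053006), which makes active vitamin D, had 235, 92 and 19 UMIs in PT-like cells, and the log2 ratio was -2.35 (-3.18 to -1.66). The low end of that course rests on 19 UMIs in 7357 cells.

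The vitamin D receptor Vdr had 92.5, 123 and 171 CPM in PT-like cells and 216, 288 and 344 CPM in DCT/CNT-like cells. The phosphate transporters differed little: Slc34a1 had log2 ratios of -0.03 in PT-like cells and -0.08 over all barcodes, and Slc34a3 0.19 and 0.12. Cyp27b1 was the only member of the 12 vitamin D and phosphate genes past 2-fold in PT-like cells. FGF23 is known to act on these transporters through protein at the membrane, which RNA does not measure.

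The Klotho gene Kl had 209, 193 and 129 CPM in PT-like cells (log2 ratio -0.59) and 1181, 1285 and 1085 CPM in DCT/CNT-like cells (log2 ratio -0.24). Fgfr1, a receptor that pairs with Klotho, had 10.1, 10.1 and 9.89 CPM in PT-like cells and 48.7, 41.1 and 51.3 CPM in DCT/CNT-like cells. No measured member of the receptor list passed 2-fold in either class.

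The DCT/CNT-like class held 439, 403 and 546 cells at 0, 1 and 4 h, of which 65, 71 and 122 were CNT-like. Of its sex-called cells 69.9% were female at 0 h, 58.3% at 1 h and 48.9% at 4 h, and the part of this shift in the differences was not tested beyond the counts within each sex. Of 9048 genes 185 (2.04%) were at least 2-fold higher at 4 h than at 1 h and 163 (1.8%) lower. Against 0 h, 195 of 9640 genes (2.02%) had changed at 1 h and 625 (6.48%) at 4 h. Of the 195, 44 had returned, 11 had partly returned, 71 were held, 13 had gone further, 6 lay on the other side of 0 h and 50 fell between, and 270 changes were new.

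The NR4A family showed the largest falls of the class. Nr4a1 (ENSMUSG00000023034, chr15:101254269-101274795) had 106 UMIs at 0 h, 706 at 1 h and 9 at 4 h, which is 24.7, 150 and 1.46 CPM (log2 ratio -6.61, -7.82 to -5.75). Nr4a2 had 24, 94 and 4 UMIs, and Nr4a3 had 15, 121 and 3 (log2 ratio -5.51, -8.02 to -4.14). All 3 were high at 1 h and below the control at 4 h.

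Atf3, a stress-induced transcription factor, returned with 17, 143 and 14 UMIs. Sgk1, a kinase that raises sodium channel activity, returned with 86, 225 and 79 UMIs. Rgs2, an inhibitor of G protein signalling chosen after its values were seen, returned with 34.5, 170 and 49.6 CPM. Atf3 and Sgk1 ended under the control level, as the NR4A family did, and Rgs2 ended above it by less than 2-fold.

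Other 1 h changes of the DCT/CNT-like cells were held. Hbegf had 23 UMIs at 0 h, 1560 at 1 h and 1780 at 4 h, which is 5.36, 332 and 289 CPM (log2 ratio -0.20, -0.30 to -0.10). Nab2 (ENSMUSG00000025402, chr10:127660918-127668568), a co-repressor that binds EGR proteins, had 9.78, 140 and 86.3 CPM. Errfi1, an inhibitor of the EGF receptor, had 41.9, 112 and 101 CPM. Id2, chosen after its values were seen, had 98.8, 707 and 939 CPM.

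Genes of epithelial injury rose later. Sprr1a (ENSMUSG00000050359, chr3:92483952-92485895), a cornified envelope protein also induced in injured cells, had no UMI at 0 h, 3 at 1 h and 367 at 4 h (log2 ratio 6.32, 4.99 to 8.83). Males' cells supplied 278 of its 4 h UMIs and females' cells 16, with log2 ratios of 6.18 and 3.50. Of the sex-called cells of the class, 48.9% were female at 4 h. The cause of this split was not tested. Anxa2 (ENSMUSG00000032231, chr9:69453620-69491795), a membrane-binding annexin, had 7, 6 and 147 UMIs (log2 ratio 4.11, 3.07 to 5.69). Both genes were near or at zero in the class until 4 h.

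Of the 9 measured members of the tubule injury list in this class, 6 were at least 2-fold higher, beside 2.04% of all genes. All 9 were higher (median 1.77, all genes -0.03). The remaining rises included the keratin Krt18 at 17.2, 20.2 and 85.9 CPM and the progenitor factor Sox9 at 14.9, 7.02 and 25.8 CPM. Over all barcodes the same list had 3 members at least 2-fold higher (1.64% of all genes) and 4 lower (2.57% of all genes), with a median of 0.37. The lower ones were S100a6, Sprr1a, Krt19 and Krt20, and the urothelial-type unnamed cluster led the CPM difference of all 4. S100a6, Sprr1a and Krt19 are also among the leading genes of that cluster. Within it the log2 ratios of the 4 were -0.16, -0.12, 0.10 and -1.58. Over all barcodes Sprr1a had 7.03, 34.3 and 15.2 CPM, a course opposite to that of the DCT/CNT-like cells after 1 h.

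In DCT/CNT-like cells all 14 members of the cholesterol synthesis list were higher at 4 h than at 1 h, 6 of them at least 2-fold (2.04% of all genes in the class), with a median log2 ratio of 0.92 against -0.03 for all genes. Fdft1 (ENSMUSG00000021273, chr14:63145150-63179578), squalene synthase, had 158, 171 and 747 UMIs (log2 ratio 1.73). Sqle, squalene epoxidase, had 35.2, 47.9 and 123 CPM. This list had a median of -0.07 in the PT-like class, -0.09 in the TAL-like class and -0.54 in the IC-like class, where all 11 measured members were lower. Split by sex, the DCT/CNT-like median was 1.41 among males' cells and 0.57 among females' cells.

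The transport genes that define the class moved less. The median of 16 distal calcium and sodium genes was -0.20 in DCT/CNT-like cells, where 1 was at least 2-fold lower (1.8% of all genes) and none higher. Over all barcodes the median was 0.37 and 3 were at least 2-fold higher (1.64% of all genes). CNT-like and collecting duct cells were more numerous there at 4 h. The gene past 2-fold in DCT/CNT-like cells was Klhl3, part of the ubiquitin ligase that degrades WNK kinases, at 509, 531 and 232 CPM (log2 ratio -1.19, -1.29 to -1.10). Pdk4, a kinase that restrains pyruvate use, had 44.0, 81.1 and 21.8 CPM, and Esrrg, an orphan receptor of oxidative metabolism chosen after its values were seen, had 51.0, 52.1 and 19.3 CPM.

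PT-like and DCT/CNT-like cells could be compared on 8907 genes measured in both. Mitochondrial, ribosomal protein, haemoglobin, immunoglobulin, T cell receptor, sex-linked and clone-named genes were left out of this comparison. Of these, 61 were 1 h changes in PT-like cells and 158 in DCT/CNT-like cells, and 24 were so in both, 39.3% of the first and 15.2% of the second. All 24 were higher at 1 h than at 0 h in both classes, so no shared change was a fall. By 4 h 10 fell in the same category. Of these 7 were held in both, 1 (Tnfrsf12a) had gone further in both, 1 (Klf10) had returned in both and 1 fell between the definitions in both. The part of free RNA from other cells in these values was not tested. Tmem252, held in both, had 306, 721 and 1100 CPM in PT-like cells. In DCT/CNT-like cells it had 3.49, 7.24 and 7.80 CPM.

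The other 14 fell in different categories in the classes, not always with clearly different ratios. Nab2 fell between the definitions in PT-like cells and was held in DCT/CNT-like cells. Its log2 ratios were -0.84 (-0.98 to -0.71) and -0.70 (-0.87 to -0.53), with overlapping intervals. Hbegf and Gadd45a had returned in PT-like cells and were held in DCT/CNT-like cells: Gadd45a had 27.0, 69.8 and 64.3 CPM in the latter. Egr1 had returned in PT-like cells and partly so in DCT/CNT-like cells, where it had 150, 2301 and 920 UMIs, or 34.9, 490 and 149 CPM (log2 ratio -1.71, -1.82 to -1.60). The Egr1 intervals of the classes do not overlap, so the fall differed by more than counting error, without a replicate check.

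Dusp6 started the interval at 82.8 CPM in both classes and ended it at 62.3 CPM in PT-like and 153 CPM in DCT/CNT-like cells. Tnfrsf12a had 12.3, 116 and 397 CPM in DCT/CNT-like cells (log2 ratio 1.77), close to the ratio of 1.81 in PT-like cells. Hmox1, Mt2 and Lor had gone further in PT-like and were held in DCT/CNT-like cells. Cyp24a1, held in both by these definitions, had 5, 34 and 26 UMIs in DCT/CNT-like cells. The PT transporter Slc34a1 had 229, 213 and 220 UMIs in the same cells, and the part of free RNA in either value was not tested.

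**Figure D4:**
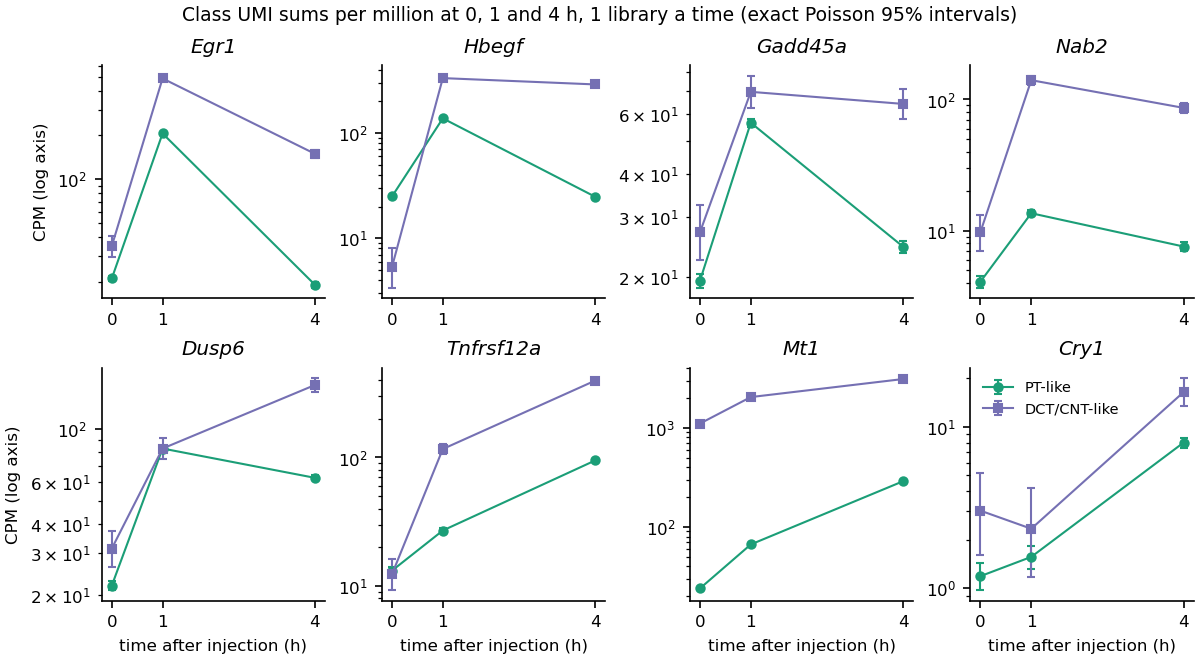
CPM of the summed UMIs (log axis, with exact Poisson 95% intervals) of 8 genes at 0, 1 and 4 h in PT-like cells (circles) and DCT/CNT-like cells (squares). Egr1, Hbegf and Gadd45a are back at or near the 0 h level in PT-like cells at 4 h and stay above it in DCT/CNT-like cells, Dusp6 falls in the former and rises in the latter, and Tnfrsf12a, Mt1 and Cry1 rise in both.

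Clock genes separated by phase. The 5 genes that peak with Bmal1 were all higher at 4 h than at 1 h over all barcodes (median 0.78), 1 at least 2-fold, beside 1.64% of all genes. Arntl, which encodes BMAL1, had 8.68, 10.3 and 18.0 CPM. Of the 10 genes that peak with Dbp, 6 were at least 2-fold lower (2.57% of all genes) and 8 lower (median -1.02, all genes 0.05). Nr1d1, the repressor REV-ERB alpha, had 24.5, 24.2 and 5.72 CPM, and Dbp, a PAR bZIP transcription factor, had 2673, 1854 and 733 UMIs. Per2, in the same list, rose from 4.73 CPM at 1 h to 9.45 at 4 h. The Dbp-phase list had medians of -1.14 in PT-like, -0.81 in DCT/CNT-like and -1.25 in TAL-like cells. The labels give no time of day, so the hour of collection cannot be told apart from the time after injection.

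Genes of the unfolded protein response, among them chaperones of the endoplasmic reticulum, were higher at 4 h, most by less than 2-fold. The median rise over all barcodes was smaller among female-called than among male-called cells, with values under Other observations. Of 12 members, 11 were higher at 4 h and 1, Xbp1, at least 2-fold over all barcodes, where 1.64% of all genes were (median 0.55). In PT-like cells 3 were at least 2-fold higher, where 2.14% of all genes were (median 0.60, all genes 0.04). Xbp1, a transcription factor of the response, had 73.8, 89.9 and 239 CPM in PT-like cells (log2 ratio 1.41), and Creld2, a chaperone-associated protein, had 22.8, 22.5 and 45.3 CPM. Hspa5, the chaperone BiP, had 352, 328 and 577 CPM. None of these was changed at 1 h.

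The stress element of such genes, CCAAT, 9 bases of any kind, and CCACG, was sought on both strands in the same 250 bases. It was present in 37 of 32851 promoters (0.113%) and in those of 5 of the 10 list genes in the table, namely Calr, Creld2, Dnajc3, Hsp90b1 and Hspa5. The promoters of 3 of these are shown because their genes had among the larger ratios of the list over all barcodes, 0.93 for Creld2, 0.79 for Hspa5 and 0.72 for Hsp90b1. Hspa5 is at chr2:34771840-34772089 on the plus strand, Creld2 at chr15:88819396-88819645 on the plus strand and Hsp90b1 at chr10:86705445-86705694 on the minus strand. Capitals mark the outer letters of each match, which on the opposite strand read CGTGG and ATTGG.
Hspa5: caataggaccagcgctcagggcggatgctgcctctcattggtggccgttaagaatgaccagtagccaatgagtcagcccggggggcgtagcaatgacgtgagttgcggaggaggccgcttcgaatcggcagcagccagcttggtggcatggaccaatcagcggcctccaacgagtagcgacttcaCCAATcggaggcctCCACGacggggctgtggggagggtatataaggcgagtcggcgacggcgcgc
Creld2: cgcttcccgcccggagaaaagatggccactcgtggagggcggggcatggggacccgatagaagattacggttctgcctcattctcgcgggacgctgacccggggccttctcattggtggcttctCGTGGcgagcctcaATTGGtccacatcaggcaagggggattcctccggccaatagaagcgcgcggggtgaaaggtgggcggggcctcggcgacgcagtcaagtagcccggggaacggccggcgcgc
Hsp90b1: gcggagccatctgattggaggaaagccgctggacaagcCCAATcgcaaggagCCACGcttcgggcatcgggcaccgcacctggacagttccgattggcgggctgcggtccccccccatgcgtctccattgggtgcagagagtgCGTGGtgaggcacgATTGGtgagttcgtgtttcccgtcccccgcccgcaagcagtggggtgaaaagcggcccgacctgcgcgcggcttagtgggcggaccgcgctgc
Xbp1, with the largest ratio of the list, had no match to these letters in its window.

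Oxidant defence genes of the NRF2 list were higher in PT-like cells for all 9 measured members, 2 of them at least 2-fold, where 2.14% of all genes were (median 0.45, all genes 0.04). Those were Hmox1 and Txnrd1, thioredoxin reductase, which had 72.2, 81.5 and 179 CPM. Genes of the integrated stress response had a median of 0.90 over 10 members in PT-like cells, with Phgdh, the first enzyme of serine synthesis, at 11.3, 10.3 and 19.4 CPM. All 12 ribosome biogenesis genes were higher at 4 h over all barcodes, none by 2-fold (median 0.31).

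**Figure D5:**
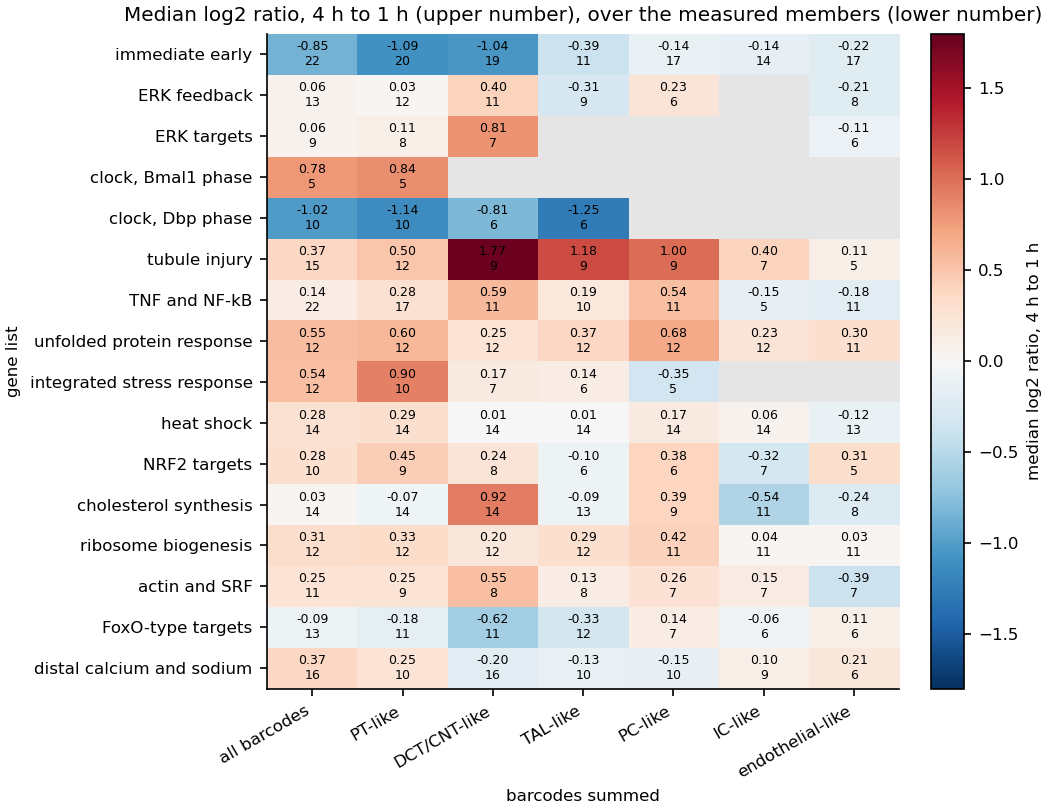
Median log2 ratio of 4 h to 1 h (colour and upper number) over the measured members (lower number) of 16 gene lists, for all barcodes and 6 classes, with squares of fewer than 5 members left grey. The immediate early and Dbp-phase lists are the lowest in PT-like cells, and the tubule injury list is the highest in DCT/CNT-like cells at 1.77.

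The other classes held fewer changes or fewer cells. In TAL-like cells (366 at 1 h, 448 at 4 h) 38 of 8467 genes (0.449%) were at least 2-fold higher and 39 (0.461%) lower. The falls included Pdk4 with 73, 111 and 21 UMIs, Klf11, a zinc finger repressor, with 33, 48 and 11, and Nr1d1 with 96, 114 and 29. The rise of Clu, the extracellular chaperone clusterin, from 195 to 1093 UMIs stood beside that of the DCT transporter Slc12a3 from 17 to 283, which is not a TAL gene. Clu had a log2 ratio of 0.46 among male-called and 3.22 among female-called cells, and Slc12a3 of 2.39 and 0.13. All 9 measured tubule injury genes were higher in TAL-like cells, 5 at least 2-fold, beside 0.449% of all genes (median 1.18, all genes 0.01).

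In PC-like cells 189 of 6667 genes (2.83%) were at least 2-fold higher and 68 (1.02%) lower, on 55 cells at 1 h and 117 at 4 h. The falls repeated those of the DCT/CNT-like cells in part: Nr4a1 had 122, 91 and 20 UMIs and Sgk1 835, 622 and 262. Among the largest rises were the endothelial gene Emcn with 2, 0 and 67 UMIs and the keratin Krt19 with 4, 3 and 138. The part of RNA from other cells in these values was not tested. In IC-like cells 62 of 7163 genes (0.866%) were higher and 30 (0.419%) lower, and the largest fall was of the neutrophil genes S100a8, with 5, 108 and 2 UMIs, and S100a9, with 3, 132 and 7. Within the IC-like rises, Dact2, an inhibitor of TGF beta and Wnt signalling, had 3, 12 and 87 UMIs.

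In endothelial-like cells 41 of 6296 genes (0.651%) were higher and 74 (1.18%) lower. Nr4a1 had 69, 94 and 9 UMIs, and Cyp26b1, which degrades retinoic acid, had 210, 261 and 46. Tubule genes were among the rises, for example Umod, the TAL protein uromodulin, with 59, 25 and 300 UMIs. Nr4a1 was thus lower at 4 h than at 1 h in PT-like, DCT/CNT-like, PC-like and endothelial-like cells, although its PT-like value rests on 60 UMIs at 1 h and 7 at 4 h.

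Male-called and female-called cells of the same pooled libraries gave a split of each ratio. Of the 231 higher genes 224 were higher in both and 97 at least 2-fold so, and of the 362 lower genes 308 were lower in both and 106 at least 2-fold so. Both sexes come from the same digestions and share every step after it, so the split is no replicate. Egr1 in PT-like cells had log2 ratios of -3.73 among male-called and -2.78 among female-called cells, and Tnfrsf12a in the same class 1.97 and 1.10. Of the sex-called S3-like cells 3.79% at 1 h and 5.49% at 4 h were female, so these PT-like values differ by segment as well as by sex. The part of each was not tested.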

How the data were processed

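The authors deposited 1 filtered matrix of raw UMI counts for each library. The submitters' processing notes name Cell Ranger 3.1.0, STAR, Seurat and mm10; which of these set the barcode filter of the matrices is not given in the sources used here. Of the gene IDs, 30934 of 31053 matched GENCODE vM21, the source of the mm10 coordinates.

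From these counts, barcodes with 300 or more genes and at most 50% mitochondrial UMIs were kept and UMIs summed per library. Ratios used CPM with 0.5 added to each sum, and intervals are exact conditional binomial (95%). A gene was measured with 100 or more UMIs over both libraries (50 within a class) and called at 2-fold or more. With 1 library a group no test was run, and no library was left out. Members, lists and rules were chosen with earlier results of these data known.

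Cells of all 4 libraries were clustered together (Leiden, leidenalg 0.10.2, resolution 1.5, 30 principal components, 20 neighbours, about 2000 variable genes without the response lists). Doublets were called from simulated pairs with 30 neighbours at an assumed 0.8% per 1000 cells (5.71% of the 1 h and 7.44% of the 4 h barcodes) and left out of classes but not of the sums over all barcodes. Naming thresholds (at least 3 markers on, a score margin of 0.5 on the log2 scale) were chosen with the clusters already in view, and 19 of 55 clusters stayed unnamed. Sex was called per cell from Xist and Y-linked transcripts. The class that leads a difference is the one with the largest share of the CPM difference.

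Genes named are the 12 largest rises and falls past 2-fold in both sexes, up to 6 per category and direction, up to 3 per class and direction, and members of the lists; others are said to be chosen after their values were seen. Scripts used Python 3.11.15, numpy 2.4.6, scipy 1.17.1, pandas 2.3.3 and scikit-learn 1.9.0, and were tested on simulated data. Alternatives covered barcode limits, UMI minimums, fold thresholds, scaling, doublets, sex and class make-up. Repeats without leukocyte-like classes, and class counts under another mitochondrial limit, sex or doublet setting, were added after seeing the data.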

Additional observations from a re-analysis of the deposited data

Results flagged for a closer look

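The cholesterol synthesis list moved in opposite directions in 2 classes between 1 and 4 h. In DCT/CNT-like cells every measured member was higher at 4 h (14 of 14, median log2 ratio 0.92), and in IC-like cells every measured member was lower (11 of 11, median -0.54). The difference between the classes was not tested, and its cause was not tested.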

How the results depend on the processing

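No paired analysis was possible because each time point is 1 library. Under the alternatives single-gene ratios stayed within the 95% counting interval of the reported ratio in 617 cases and moved outside it in 191. With means of each cell's CPM the signs of Gsdmc3 (0.89) and Unc5a (0.37) changed, as did the red cell marker median (-0.67, and -0.41 in female-called cells). Of the 52 named genes past 2-fold over all barcodes, 52 kept their direction and 51 their size with the make-up held, and 50 kept their direction with means of each cell's CPM. Holding the make-up could not remove shifts between the unnamed clusters, which count as 1 class. Igfbp2 had a log2 ratio of -2.58 with the make-up held and -0.94 within the urothelial-type cluster. The naming rule itself uses both sexes, so its genes are no check of the split by sex.

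Counts moved more. With 30 UMIs as the minimum there were 417 higher, 134 returned and 160 held genes. With 300 there were 141 higher, 199 lower, 30 returned and 35 held. With none there were 2153 higher, 2101 lower, 1382 returned, 1368 held and 1998 new, most on few UMIs. At 1.5-fold the counts were 916, 877, 166, 203 and 1326, and at 3-fold 44, 116, 22, 23 and 126. Means of each cell's CPM gave 577 lower and 118 held. With the make-up held, over every gene measured, there were 141 higher, 187 lower and 183 new. Male-called cells gave 375 higher, and female-called cells 166 lower, 89 returned and 179 new. Without leukocyte-like classes 170 were lower and 281 new.

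In female-called cells 108 genes were lower in DCT/CNT-like, 22 in TAL-like, 31 in PC-like and 42 in endothelial-like cells, and 121 were higher in PC-like and 37 in IC-like cells. In male-called cells 104 were higher in PC-like, and 24 higher and 40 lower in endothelial-like cells. With doublet calls kept 114 were lower in PC-like and 98 higher in IC-like cells, and with at most 25% mitochondrial UMIs 47 were lower in IC-like cells. Causes were not tested. The median over all genes was 0.05, and -0.02 without mitochondrial and ribosomal protein UMIs.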

Other observations

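Several lists parted by sex within the same pair of libraries. The unfolded protein response list had a median log2 ratio of 0.83 among male-called and 0.11 among female-called cells over all barcodes, and the heat shock list 0.49 and -0.26. In PT-like cells the interferon response list had medians of -1.18 among male-called and 0.37 among female-called cells. These differences were not tested, and the cells of each sex come from the same pooled digestions. Few S3-like cells were female-called, so the PT-like medians differ by segment as well as by sex.

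A small unnamed cluster supplied several of the largest rises. It held 57, 45 and 71 cells at 0, 1 and 4 h. In it Corin had 12, 7 and 294 UMIs, and Angpt2, a ligand that destabilises blood vessels, had 21, 40 and 469. Uncx, a homeobox transcription factor, had 8, 0 and 89 UMIs in the same cells. Krt14, a basal keratin, had no UMI at 0 h and 88 and 171 in the urothelial-type cluster, whose cells fell from 46 to 27 between 1 and 4 h. Ccl1, a chemokine led by T/NK-like cells, had 146, 4 and 182 UMIs over all barcodes, so the 1 h library stood apart from the other 2.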
